A study of Mus musculus with 29 samples.

Results

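Cells induced toward sclerotome in culture with the molecules LDN and SAG, called DIR, were set against young somites taken straight from the embryo, called SOMB, to see how closely the induced cells match early somites. The 8 libraries of these groups, 4 each, were chosen by their labels from the 29 RNA-seq libraries of the series, and no measured value entered the choice. All were mouse cells of the Dll1 lineage from embryos at embryonic day 9.0 that carried Dll1-YFP on a C57BL/6 background, and all were collected by their YFP in a cell sorter. For DIR, presomitic mesoderm was explanted and cultured with LDN and SAG. For SOMB, somites 2 to 5 were dissociated and sorted without culture. CTRL (4 libraries) had explants cultured without the molecules, SOMA (3 libraries) uncultured presomitic mesoderm with the newest somite, SOMC (4 libraries) somites 6 to 9 and SOMD (4 libraries) those from 10 on. The labels give neither doses nor the time in culture. DIR and SOMB thus differ in the molecules, in culture and in the starting tissue at once, and these cannot be told apart from their contrast alone. CTRL values are therefore given beside it for many of the genes and lists. Because the labels do not say whether replicates came from separate embryos or cultures, p-values measure the spread between these samples, which may be technical.

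Presomitic mesoderm is the unsegmented tissue beside the tail end of the neural tube. FGF and Wnt signals keep it immature, and blocks of it bud off as epithelial somites. Hedgehog protein from notochord and floor plate turns the ventral somite into sclerotome, the source of vertebrae and ribs, and BMP signals from lateral tissue and dorsal ectoderm oppose this. LDN blocks BMP receptors, and SAG activates Smoothened, the membrane protein that passes on the Hedgehog signal.

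Gene counts summed to 22897486 to 42002422 per DIR library and 14319991 to 25497288 per SOMB library. DIR libraries fell into pairs. Their distance, the root mean square difference of log2 CPM (counts of a gene scaled to the total of its library) over 13725 genes, was 0.369 between DIR1 and DIR2 and 0.452 between DIR3 and DIR4, and 0.606 to 0.832 across the pairs. DIR1 and DIR2 also had the highest multi-mapping shares, the part of reads placed at several sites (25.4% and 22.3%, against 19.5% and 17.6% in DIR3 and DIR4 and 18 to 20.3% in SOMB). CTRL1, with 22.7%, lay nearest to them (0.491 and 0.365). Within SOMB the distances ran from 0.403 to 0.533. For most genes described below whose call or direction changed when a pair was left out, this is given there or with the limits at the end.

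By distance, the induced libraries lay nearer to cultured controls than to any embryonic group. The median distance of DIR from CTRL was 0.676 (16 pairs of libraries), from SOMA 0.844 (12 pairs), from SOMB 0.932, from SOMC 0.985 and from SOMD 1.03 (16 pairs each). The distance from SOMB exceeded those between DIR libraries themselves (median 0.638) and that from SOMA to SOMB (median 0.607). The order CTRL, SOMA, SOMB, SOMC, SOMD of the median distances held in DIR1, DIR2, DIR3 and DIR4 separately. CTRL, which never received the molecules, lay at a median of 0.821 from SOMB. These distances are a description and were not tested.

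**Figure D1:**
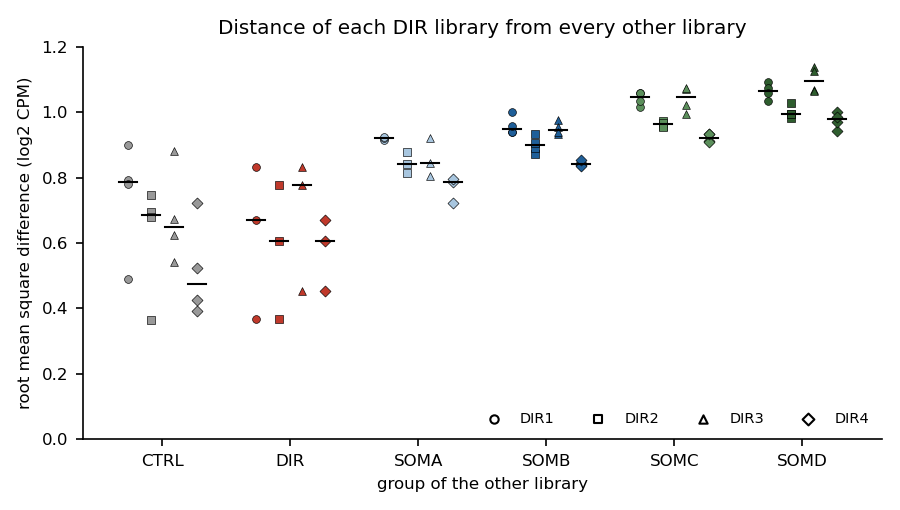
Root mean square difference of log2 CPM between each DIR library and every library of 6 groups (1 point per library pair, marker shape by DIR library, bar at the median). Distances from SOMB lie between 0.837 and 1.0, above those from SOMA (0.722 to 0.926) in the median of every DIR library.

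Of 13725 genes tested, 2385 were higher in DIR than in SOMB (17.4%) and 2119 were lower (15.4%) at an adjusted p under 0.05 (edgeR quasi-likelihood test, Benjamini-Hochberg over all genes tested). By at least 2-fold, 960 were higher and 713 lower. Likeness was counted separately: for 8637 genes (62.9%) the 95% interval of the log2 fold change lay wholly between -1 and 1, so that a 2-fold difference was outside it. This set holds 1554 of the genes called higher or lower, and 2138 genes were neither called nor within 2-fold. The libraries of the groups did not overlap for 4706 genes (34.3%; DIR all above in 19.1% and all below in 15.2%). Without DIR3 and DIR4 the count of lower genes was 3380, with 3067 higher. Without DIR1 and DIR2 there were 2885 higher and 2467 lower. Against SOMB, CTRL had 2556 higher (17.6%) and 1866 lower genes (12.9%) of 14492 tested; this comparison shares the SOMB libraries with that of DIR. Directly between DIR and CTRL, 149 genes were higher (1.03%) and 189 lower (1.3%) in DIR. Likeness was not counted between DIR and CTRL, so genes that did not pass there were not shown to be alike.

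**Figure D2:**
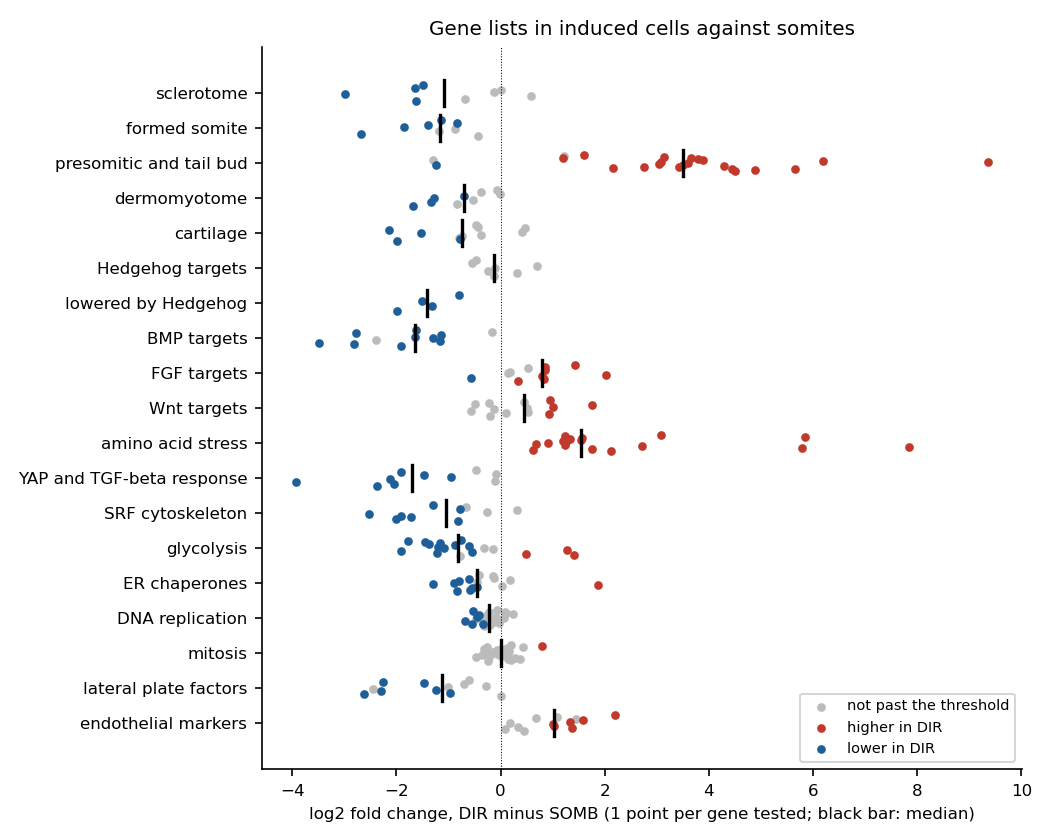
Log2 fold change of DIR against SOMB for the tested genes of 19 lists (1 point per gene, colour by the edgeR call, black bar at the list's median). Amino acid stress genes lie to the right of 0 (median 1.55), and so do most presomitic genes (median 3.51, lowest value -1.29). BMP targets, genes lowered by Hedgehog signalling and genes of the YAP response lie to the left. The point at 9.36 is Fgf4, whose SOMB libraries held 1 count.

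Sclerotome genes were present in the induced cells but did not all reach the level of somites. Of 8 sclerotome genes none rose, 4 fell (Nkx3-2, Sox9, Pax1 and Twist1) and 2 were within 2-fold (Foxc1 and Foxc2); the median log2 fold change was -1.08, against 0.00 over all genes tested. In CTRL against SOMB 6 of the 8 fell, with a median of -2.18, and in DIR against CTRL 2 rose, Pax1 among them. Pax1 (chr2:147361925-147393295, GRCm38) encodes a paired-box factor that marks early sclerotome. It was counted at 37.1, 17.9, 8.86 and 18.2 CPM in DIR1 to DIR4 and 57.2, 109.8, 37.5 and 41.5 CPM in SOMB1 to SOMB4. The highest DIR library came just below the lowest SOMB library. The log2 fold change was -1.62 ± 0.43 (SE; adjusted p = 0.0194), or 3.08-fold lower in DIR; without SOMB2, or without DIR3 and DIR4, this no longer passed the threshold (adjusted p up to 0.0536). CTRL held only 0.913 to 1.92 CPM, so that DIR exceeded CTRL by 3.93 ± 0.60 on the log2 scale (adjusted p = 0.00403).

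Pax9 (chr12:56691767-56712822), the relative of Pax1, was counted at 9.98, 4.48, 1.01 and 5.7 CPM in DIR1 to DIR4 and 10.2, 13.2, 4.08 and 5.63 CPM in SOMB1 to SOMB4. The groups overlapped, and a difference was not shown (-0.68 ± 0.56, adjusted p = 0.375), with an interval of -1.91 to 0.56. CTRL lay at 0.273 to 2.94 CPM, and DIR against CTRL gave 2.1 ± 0.69 (adjusted p = 0.126).

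Nkx3-2 (chr5:41761483-41764501), a homeobox factor that acts after Pax1 and Pax9 toward cartilage, was nearly missing from DIR: 0.413, 0.147, 0.193 and 0.449 CPM in DIR1 to DIR4 and 2.72, 3.23, 1.74 and 1.73 CPM in SOMB1 to SOMB4. Every DIR library lay below every SOMB library, with a log2 fold change of -2.99 ± 0.40 (7.95-fold lower, adjusted p = 6.18e-04). In DIR against CTRL its value was 0.73 ± 0.58 (adjusted p = 0.475). Sox9, the master factor of cartilage, fell as well (11, 8.85, 7.17 and 8.92 CPM in DIR1 to DIR4 and 26.9, 44, 22 and 16.6 CPM in SOMB1 to SOMB4; -1.64 ± 0.27, adjusted p = 0.00212), as did the mesenchymal factor Twist1 (-1.48, adjusted p = 0.00173). Foxc1 had 81.6, 79.3, 81.3 and 75.3 CPM in DIR1 to DIR4 and 89.4, 72.8, 97.4 and 78.2 CPM in SOMB1 to SOMB4, and its 95% interval ran from -0.38 to 0.12. Foxc2 was at 0.00 (-0.39 to 0.40). These forkhead genes are active in presomitic mesoderm and somite alike, and SOMA had 127 to 157 and 112 to 145 CPM.

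**Figure D3:**
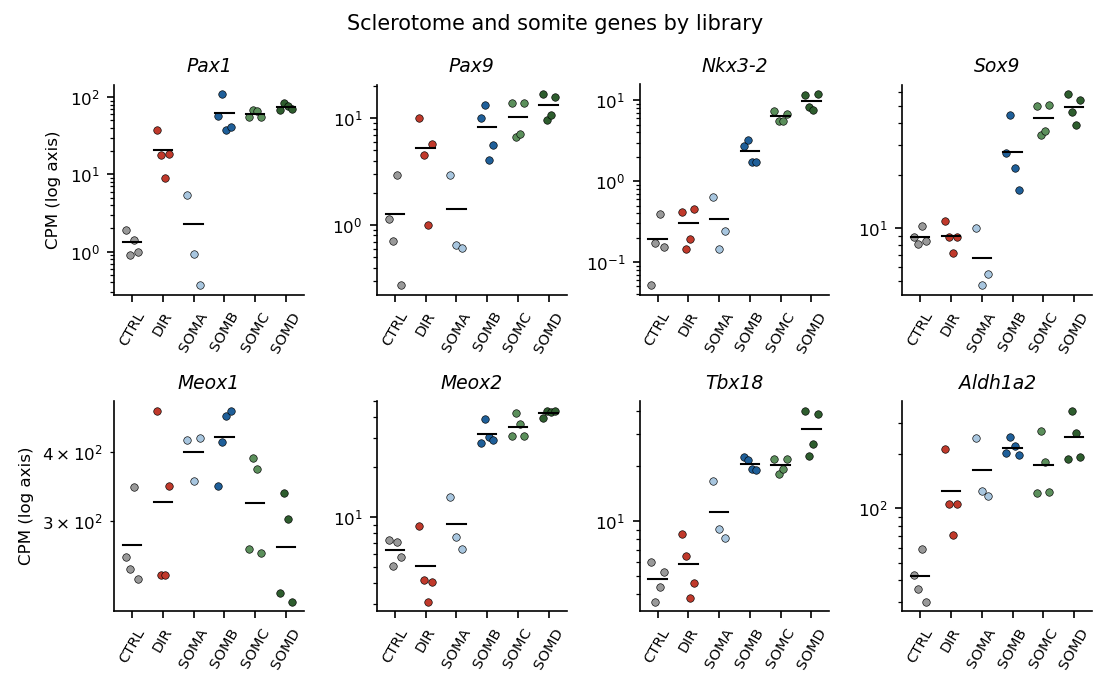
CPM on a log axis of 4 sclerotome genes (upper row) and 4 somite genes (lower row) in each library of 6 groups (point: library; bar: group mean). Pax1 of DIR lies above all CTRL libraries, and Nkx3-2, Sox9, Meox2 and Tbx18 of DIR lie below all SOMB libraries.

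Genes that mark formed somites were lower or not shown to differ. Of 8, none rose, 5 fell and 1 was within 2-fold, with a median of -1.17; CTRL gave 6 lower and a median of -1.10. Meox2, a homeobox gene of somite and limb muscle precursors, was counted at 8.86, 4.17, 3.08 and 4.04 CPM in DIR1 to DIR4 and 28, 38.8, 30.3 and 29 CPM in SOMB1 to SOMB4. All DIR libraries lay below all SOMB libraries, and the gene was 6.38-fold lower (-2.67 ± 0.29, adjusted p = 2.78e-04). Tbx18, a T-box gene that marks the front part of each somite, had the same pattern with 8.52, 6.45, 3.8 and 4.56 CPM in DIR1 to DIR4 and 22.4, 21.7, 19.4 and 19.1 CPM in SOMB1 to SOMB4 (-1.85 ± 0.23, adjusted p = 5.02e-04). Uncx, which marks the rear part, split the DIR libraries: 9.45, 4.78, 33.3 and 52 CPM in DIR1 to DIR4 and 39, 37.5, 57.6 and 43.1 CPM in SOMB1 to SOMB4. DIR1 and DIR2 lay far below SOMB, DIR3 just below it and DIR4 inside its range (-0.87 ± 0.59, adjusted p = 0.286). Without DIR3 and DIR4 the value of Uncx was -2.67 (adjusted p = 1.37e-04), and without DIR1 and DIR2 it was -0.07 (0.826). Tcf15, needed for epithelial somites, was also lower in DIR1 and DIR2 than in DIR3 and DIR4 (15, 9.02, 43.1 and 39.7 CPM in DIR1 to DIR4 and 48.7, 44.5, 71.1 and 72.6 CPM in SOMB1 to SOMB4; -1.19 ± 0.44, adjusted p = 0.0637). Tcf15 passed without DIR3 (adjusted p = 0.0271), without DIR3 and DIR4 (-2.34, adjusted p = 2.27e-04) and by DESeq2 (0.0171), and was -0.53 without DIR1 and DIR2 (0.0719). Meox1, the relative of Meox2, overlapped with SOMB at 472, 239.8, 239 and 346 CPM in DIR1 to DIR4 and 347, 416, 463 and 474 CPM in SOMB1 to SOMB4 (-0.43, 95% interval -0.91 to 0.06, adjusted p = 0.156); it passed without DIR1 (adjusted p = 0.0226) and without DIR1 and DIR2 (-0.55, adjusted p = 0.0350).

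Aldh1a2, the enzyme that makes retinoic acid in somites, stood between cultured control and embryo. It had 214, 106, 71.6 and 106 CPM in DIR1 to DIR4 and 203, 251, 221 and 197 CPM in SOMB1 to SOMB4. DIR1 fell inside the SOMB range and the other DIR libraries below it. The difference of -0.85 ± 0.28 (adjusted p = 0.0411) did not pass when any library other than DIR1 was left out alone, or without DIR3 and DIR4 (adjusted p up to 0.123). CTRL was lower still (30.3 to 59.4 CPM), and DIR exceeded CTRL by 1.54 ± 0.31 (adjusted p = 0.0179; 0.0541 without CTRL2 and 0.0722 without CTRL4).

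Genes of later somite derivatives mostly fell where a difference was found. Of 9 tested dermomyotome genes 4 fell and none rose, with a median of -0.70. In CTRL against SOMB 2 of 9 fell, with a median of -0.22. Pax3, the dermomyotome factor, had 23.4, 14.6, 10.1 and 20.8 CPM in DIR1 to DIR4 and 50.9, 50.8, 62.1 and 52.4 CPM in SOMB1 to SOMB4, with no overlap (-1.69 ± 0.23, adjusted p = 8.01e-04). Eya2 and Eya1, cofactors in muscle precursors, stood at -0.70 and -1.28 (adjusted p = 0.0153 and 0.00179); without DIR1 and DIR2 the fall of Eya2 did not pass (adjusted p = 0.0529). Against CTRL these moved in opposite directions, with 1.52 ± 0.20 for Eya2 (adjusted p = 0.00101) and -1.01 ± 0.19 for Eya1 (adjusted p = 0.0118). Among 10 tested myotome genes 3 fell and 1 rose (Tnnt1, a troponin gene, by 1.22, adjusted p = 0.0109). The other 6 did not pass, and the median was 0.38. The list summed to 59.8 to 71.7 CPM in DIR and 59.1 to 82.9 CPM in SOMB. Of its 15 genes 10 had a mean under 1 CPM in DIR and 11 in SOMB. In CTRL against SOMB 2 of 11 fell and 2 rose (median 0.21). Myf5, the earliest of the muscle determination factors, was low in DIR (0.146, 0.368, 0.241 and 0.242 CPM in DIR1 to DIR4 and 4.99, 8.26, 3.95 and 3.76 CPM in SOMB1 to SOMB4; 21.2-fold lower, -4.41 ± 0.38, adjusted p = 6.48e-05). It was also lower in DIR than in CTRL, at -2.99 ± 0.49 (adjusted p = 0.00393). Of 11 tested cartilage genes 4 fell, Col2a1 (type II collagen) among them with 24.7, 24.4, 30.4 and 44.6 CPM in DIR1 to DIR4 and 119, 129, 129.9 and 101 CPM in SOMB1 to SOMB4 (-1.98 ± 0.19, adjusted p = 1.61e-04). Col9a1 fell by 0.78 against SOMB and was -1.96 ± 0.20 against CTRL (adjusted p = 1.18e-04). In CTRL against SOMB 2 of 12 cartilage genes fell and 2 rose (median -0.10). Of 4 tested tendon genes 2 fell and none rose, with a median of -0.24. They were Tnc (-1.73, adjusted p = 0.0438) and Thbs4 (-0.83, adjusted p = 0.0398). With any single library left out, 0 to 1 tendon genes fell. Thbs4 also did not pass without DIR1 and DIR2 (adjusted p = 0.0542) or without DIR3 and DIR4 (0.0876). The tendon factor Scx was at 0.583, 0.858, 3.18 and 3.91 CPM in DIR1 to DIR4 and 0.668, 0.964, 1.14 and 1.3 CPM in SOMB1 to SOMB4 (1.02 ± 0.59, adjusted p = 0.209), and it was -0.50 without DIR3 and DIR4 (adjusted p = 0.290) and 1.81 without DIR1 and DIR2 (adjusted p = 0.00228).

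Direct Hedgehog targets lay mostly within 2-fold of somites. By edgeR none of 7 rose or fell, and the median was -0.13. Of the 7, 6 were within 2-fold of SOMB, where 62.9% of all genes tested were. In CTRL against SOMB 2 of the 7 fell (median -0.26), and in DIR against CTRL none passed (median 0.02). Ptch1, the Hedgehog receptor and the most used readout of the pathway, had 213, 277, 265 and 247 CPM in DIR1 to DIR4 and 212, 139, 244 and 187 CPM in SOMB1 to SOMB4. The groups overlapped (0.32 ± 0.17, 95% interval -0.05 to 0.69, adjusted p = 0.168). Gli1, a transcription factor switched on by the pathway, had 71.1, 78.1, 77.5 and 102 CPM in DIR1 to DIR4 and 109.6, 73.5, 91.4 and 76.7 CPM in SOMB1 to SOMB4 (-0.13 ± 0.16, interval -0.49 to 0.22). Hhip, a decoy for the ligand, varied from 8.37 to 32.4 CPM in DIR around the 17.6 to 23 CPM of SOMB (-0.11 ± 0.32, interval -0.83 to 0.60; -0.75, adjusted p = 0.0377, without DIR1 and DIR2). CTRL had 140.2 to 206 CPM of Ptch1 and 6.86 to 12.8 CPM of Hhip; DIR against CTRL gave 0.49 ± 0.16 (adjusted p = 0.112) and 1.11 ± 0.33 (adjusted p = 0.0893; 0.0179 without DIR3 and 0.0389 without CTRL1).

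Foxf1a, a forkhead gene of lateral and ventral mesoderm, was the target not within 2-fold and split the DIR pairs: 6.6, 13, 69.2 and 44.1 CPM in DIR1 to DIR4 against 22.2, 14.2, 24.9 and 18.9 CPM in SOMB. Its log2 fold change was 0.69 over all libraries and -1.06 (adjusted p = 0.0168) without DIR3 and DIR4, against 1.48 (adjusted p = 0.00142) without DIR1 and DIR2. In the same setting 3 of the 7 targets fell, while without DIR1 and DIR2 1 rose and 1 fell; 1 fell without DIR4 or SOMB2.

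Coreceptor genes and Gli3, which Hedgehog signalling lowers, were all down. Gas1, Boc and Cdon encode coreceptors of the ligand, and Gli3 the factor that yields the pathway's repressor; 4 of 4 fell, with a median of -1.41 (CTRL: 3 of 4, median -0.81). Gas1 had 63.7, 59.7, 46.2 and 80.2 CPM in DIR1 to DIR4 and 262, 243, 221 and 242 CPM in SOMB1 to SOMB4. No libraries overlapped, and it was 3.98-fold lower (-1.99 ± 0.15, adjusted p = 4.98e-05). Boc was at -1.51 ± 0.16 (DIR 17.3 to 22 CPM, SOMB 43 to 67.5 CPM, adjusted p = 2.03e-04), and Cdon at -1.31 ± 0.19 (DIR 24.6 to 47.5 CPM, SOMB 82.8 to 102 CPM, adjusted p = 0.00106). Gli3 fell by 0.80 ± 0.23 (adjusted p = 0.0241), with DIR2 inside the SOMB range; this was lost without any of DIR1, DIR4, SOMB1 and SOMB3 and without DIR3 and DIR4 (adjusted p up to 0.0715). Against CTRL, Gas1 was at -0.93 ± 0.21 (adjusted p = 0.0359; 0.0601 to 0.117 without any of DIR1, DIR2, DIR3, CTRL3 and CTRL4) and Boc at -0.93 ± 0.18 (adjusted p = 0.0121), while Cdon did not pass (-0.21 ± 0.18, adjusted p = 0.515). Of 7 other tested pathway components 5 fell, among them Gli2, the main activator (-1.25), the ligand-binding receptor Lrp2 (-1.53) and Smo itself (-0.68; DIR 116 to 192 CPM, SOMB 214 to 242 CPM). Without any of DIR1, DIR2, DIR4, SOMB1, SOMB3 and SOMB4, 3 of the 7 fell.

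BMP targets were far below the embryonic level. Of 11, 9 fell, none rose and Bambi alone was within 2-fold, with a median of -1.64; in CTRL against SOMB, 3 rose and none fell, with a median of 0.25. In DIR against CTRL, 8 of 11 were lower, beside 1.3% of all genes tested. Of the 8, Atoh8 (adjusted p = 0.0439) did not pass without any of DIR1, DIR2, DIR4, CTRL2, CTRL3 and CTRL4 (up to 0.147). Smad6 (0.0199) did not pass without any of DIR1, CTRL3 and CTRL4 (up to 0.0719). Id1 and Msx1 did not pass over all libraries but did so without CTRL1 (0.0183 and 0.0339), and Id1 also without DIR3 (0.0123). Id2 (chr12:25093799-25097140) and Id3 (chr4:136143497-136145755) encode inhibitors of bHLH factors that BMP receptors induce directly. Id2 had 13.4, 20.2, 30.3 and 17.2 CPM in DIR1 to DIR4 and 134, 174, 115 and 129 CPM in SOMB1 to SOMB4, with no overlap (6.99-fold lower; -2.81 ± 0.23, adjusted p = 7.53e-05). Id3 had 3.13, 4.09, 23.7 and 11.7 CPM in DIR1 to DIR4 and 108, 140.3, 113 and 98.5 CPM in SOMB1 to SOMB4 (11.2-fold lower; -3.49 ± 0.52, adjusted p = 0.00179); DIR3 and DIR4 were above DIR1 and DIR2, yet far below SOMB. Smad9, a receptor-activated SMAD whose own gene is a target, fell from 8.55, 5.32, 8.04 and 5.92 CPM in SOMB1 to SOMB4 to 0.801, 1.5, 0.770 and 1.04 CPM in DIR1 to DIR4 (-2.78 ± 0.27, adjusted p = 1.42e-04). The inhibitory SMADs, feedback targets of the pathway, fell, with values of -1.64 (Smad6) and -1.15 (Smad7).

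The ranges of CTRL and SOMB overlapped for Id2, Id3 and Smad9. For Id2 and Smad9 they did so only at the top of the SOMB range, and CTRL reached above it. For Id2 CTRL had 171 to 184 CPM, and DIR was -3.15 ± 0.19 against it (adjusted p = 8.16e-07). For Id3 CTRL had 37 to 159 CPM, and the value against it was -3.57 ± 0.51 (adjusted p = 0.00373). For Smad9 CTRL had 8.53 to 16.5 CPM, with -3.62 ± 0.29 (adjusted p = 1.01e-05). Bambi, a decoy receptor, had 30.7 to 38.8 CPM in DIR and 30.01 to 41 CPM in SOMB, while CTRL had 65.7 to 81.3 CPM (-1.11 ± 0.12 against CTRL, adjusted p = 1.18e-04). Msx1 varied most: 0.0486, 0.123, 8.37 and 7.4 CPM in DIR1 to DIR4 and 20, 15.5, 22 and 22.1 CPM in SOMB1 to SOMB4. Every DIR library lay below SOMB, with DIR1 and DIR2 far lower than DIR3 and DIR4, and over all libraries the difference of -2.39 ± 1.0 did not pass (adjusted p = 0.103). With either pair alone it passed, at -1.35 without DIR1 and DIR2 (adjusted p = 9.22e-04) and -7.82 without DIR3 and DIR4 (2.46e-06). CTRL spanned 0.389 to 58.7 CPM of Msx1.

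**Figure D4:**
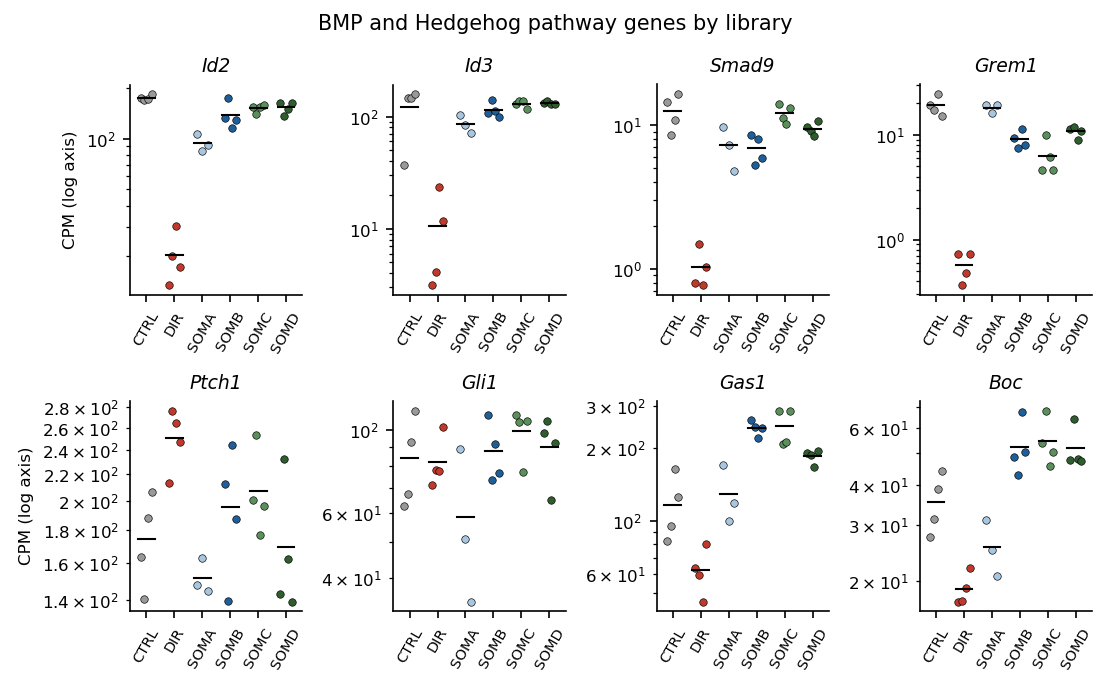
CPM on a log axis of 4 genes of the BMP pathway (upper row) and 4 of the Hedgehog pathway (lower row) in each library of 6 groups (point: library; bar: group mean). Id2, Id3, Smad9 and Grem1 of DIR lie below every library of the other 5 groups, while Ptch1 and Gli1 overlap with SOMB.

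Secreted BMP antagonists moved both ways: 6 of 10 tested fell and 2 rose (1 without SOMB1). Grem1, an antagonist made by somites, had 0.728, 0.368, 0.481 and 0.726 CPM in DIR1 to DIR4 and 9.26, 7.5, 11.4 and 8.02 CPM in SOMB1 to SOMB4 (15.9-fold lower; -3.99 ± 0.26, adjusted p = 1.97e-05). CTRL had 15.3 to 24.5 CPM, and DIR stood at -5.06 ± 0.23 against it (adjusted p = 2.30e-08), the gene with the lowest adjusted p of those set against CTRL here. Nog (noggin), another antagonist, fell by 2.09 ± 0.44 (adjusted p = 0.00668), from 1.66 to 2.56 CPM in SOMB to 0.219 to 1.11 CPM in DIR. The antagonist Nbl1 rose, with 14.4, 10.6, 17.4 and 14.1 CPM in DIR1 to DIR4 and 2.85, 4.86, 4.89 and 4.48 CPM in SOMB1 to SOMB4 (1.69 ± 0.22, adjusted p = 5.87e-04), and by 2.33 ± 0.19 against CTRL (adjusted p = 1.01e-05). Bmp3, a family member that opposes the others and was chosen after its values were seen, was at 49, 27.7, 22.8 and 27.6 CPM in DIR and 14.5, 17, 18.5 and 18.3 CPM in SOMB (0.86 ± 0.22, adjusted p = 0.0163); CTRL had 2.37 to 3.47 CPM (3.41 ± 0.21, adjusted p = 8.16e-07). Among 15 tested ligands and receptors 8 were within 2-fold, 2 rose (Bmp7 by 0.83 and Bmp2 by 1.15) and 4 fell, with Gdf6 at -4.60. Without DIR2 or SOMB1, Bmp2 did not pass (adjusted p = 0.0554 and 0.0539; 0.0826 without DIR1 and DIR2), and without SOMB3 or SOMB4 2 of these genes fell.

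Genes of the presomitic mesoderm and tail bud were still high in the induced cells. Of 23, 20 rose against SOMB and 1 fell, none was within 2-fold, and the median was 3.51. No overlap was seen for 19 of the 23, against 34.3% of all genes tested. CTRL gave 20 higher and 2 lower, with a median of 3.17, and DIR against CTRL 1 higher and 1 lower. Tbx6, the T-box factor that fixes presomitic fate, had 26.9, 34.4, 95 and 81.6 CPM in DIR1 to DIR4 and 5.17, 0.419, 1.0 and 0.939 CPM in SOMB1 to SOMB4. It was 29.6-fold higher (4.89 ± 0.68, adjusted p = 0.0012). T (brachyury), a T-box factor of the tail bud, had 37, 46.6, 94.5 and 80.2 CPM in DIR1 to DIR4 and 3.21, 1.97, 2.95 and 3.11 CPM in SOMB1 to SOMB4 (22.6-fold; 4.5 ± 0.31, adjusted p = 3.49e-05), and Msgn1 (chr12:11208360-11208972), a bHLH factor of the same tissue, had 6.29, 12.1, 29.5 and 33.7 CPM in DIR1 to DIR4 and 0.713, 0.293, 0.201 and 0.289 CPM in SOMB1 to SOMB4 (50.2-fold; 5.65 ± 0.67, adjusted p = 2.84e-04). In each of these DIR3 and DIR4 were above DIR1 and DIR2, and all were above SOMB. SOMA, which holds presomitic mesoderm, had 49.6 to 78.2 CPM of Tbx6, 26.3 to 66.8 CPM of T and 11.3 to 39.8 CPM of Msgn1.

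Signals of the posterior embryo rose with them. Fgf4, a signal made in the tail bud, summed to 1542 counts in DIR and 1 count in SOMB, a ratio of CPM of 879 (95% counting interval 158 to 34753, which covers counting error only). DIR1 to DIR4 had 8.64, 11.7, 12.9 and 15.3 CPM of Fgf4, also above CTRL (1.17 to 2.23 CPM; 2.87 ± 0.30, adjusted p = 1.35e-04) and SOMA (0.0706 to 0.501 CPM). Fgf17 and Fgf3 were 72.7-fold and 40.3-fold higher (adjusted p = 4.91e-04 and 4.05e-04). Rspo3, which strengthens Wnt signals, rose by 3.15 ± 0.18 (60.8, 74.3, 97 and 72.2 CPM in DIR1 to DIR4 and 10.4, 6.66, 8.57 and 7.8 CPM in SOMB1 to SOMB4; adjusted p = 1.18e-05). Nrarp, a feedback gene of Notch, rose by 3.59 ± 0.23 (153, 130.2, 254 and 206 CPM in DIR1 to DIR4 and 20.2, 14.8, 11.9 and 12.9 CPM in SOMB1 to SOMB4; adjusted p = 2.44e-05). The member that fell, Ripply1, a repressor made where somites form, had 2.53, 1.18, 0.866 and 2.18 CPM in DIR1 to DIR4 and 3.21, 5.03, 2.61 and 4.84 CPM in SOMB1 to SOMB4 (-1.24 ± 0.36, adjusted p = 0.0253). Evx1, which was chosen like Ripply1 after its values were seen, rose by 1.2 ± 0.38 against SOMB but was -1.53 ± 0.33 against CTRL (adjusted p = 0.0296; 0.0531 to 0.105 without any of DIR1, DIR2, CTRL2, CTRL3 and CTRL4). Without DIR3 and DIR4, 18 of the 23 rose and 2 fell; without DIR2 or SOMB4 none fell, and without DIR3 2 fell.

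Targets of FGF receptors were partly higher. Of 11, 7 rose, 1 fell and 4 were within 2-fold (median 0.80; CTRL 9 higher, median 0.81). Spry4, a feedback inhibitor, had 28.9, 33.5, 29.3 and 28.7 CPM in DIR1 to DIR4 and 10.02, 7.38, 6.56 and 4.7 CPM in SOMB1 to SOMB4 (2.02 ± 0.20, adjusted p = 1.73e-04), and Il17rd, another, rose by 1.42. The target that fell did not pass without any of DIR1, DIR2, SOMB1, SOMB3 and SOMB4. Of 13 Wnt targets 4 rose, none fell and 5 were within 2-fold (median 0.44): Tnfrsf19 by 0.95, Lef1 by 0.93, Dkk1 by 1.0 and Rnf43 by 1.75. Dkk1 did not pass without any of DIR4, SOMB2, SOMB3 and SOMB4 (adjusted p up to 0.0622), nor Rnf43 without any of DIR2, DIR4, SOMB1 and SOMB3 (up to 0.0732). Without DIR4 or SOMB3, 2 Wnt targets rose. Without DIR3 and DIR4, 1 rose and 2 fell, and Lef1 (adjusted p = 0.0607), Dkk1 (0.0758) and Rnf43 (0.0830) did not pass. In CTRL against SOMB 7 of 13 Wnt targets rose and 1 fell, with a median of 0.56. Of 6 Notch targets 2 rose, Nrarp and Hey1 (1.58).

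A uniform change lay outside the somite programme. All 17 genes of the amino acid stress response rose, 15 without overlap (34.3% of all genes tested had none), with a median of 1.55. With single libraries left out, 15 to 17 of these genes rose. This response is run by ATF4, which is made when amino acids run short or proteins misfold, and it switches on transport and synthesis of amino acids. CTRL showed 16 of 17 higher, with a median of 1.41, and DIR against CTRL 1 of 17. Chac1 (chr2:119351229-119354381), an enzyme that breaks down glutathione, had 40.9, 39.2, 51.1 and 83.7 CPM in DIR1 to DIR4 and 0.312, 0.210, 0.268 and 0.0722 CPM in SOMB1 to SOMB4, 228-fold higher (7.84 ± 0.47, adjusted p = 6.72e-06). Trib3, a pseudokinase that feeds back on ATF4, had 38.3, 26.7, 31.6 and 62 CPM in DIR1 to DIR4 and 0.534, 0.712, 0.871 and 0.722 CPM in SOMB1 to SOMB4 (55-fold; 5.78 ± 0.32, adjusted p = 8.15e-06). Asns, which makes asparagine, had 636, 456, 449 and 470.5 CPM in DIR1 to DIR4 and 70.2, 90.4, 66.6 and 69.3 CPM in SOMB1 to SOMB4 (6.61-fold; 2.72 ± 0.15, adjusted p = 8.15e-06). Pck2, a mitochondrial enzyme of gluconeogenesis, rose by 3.09 ± 0.14 (adjusted p = 6.72e-06) from 17.4 to 21.4 CPM to 131 to 200.1 CPM. Uncultured SOMA lay with SOMB (0.141 to 0.245 CPM of Chac1, 0.812 to 1.1 of Trib3) and CTRL with DIR (28.4 to 75.7 and 18.9 to 39.97 CPM). Nupr1, a small stress protein, had 36.1, 15.4, 12 and 24.1 CPM in DIR1 to DIR4 and 0.312, 0.503, 0.469 and 0.144 CPM in SOMB1 to SOMB4 (57.3-fold); it alone of the list passed against CTRL (4.54 to 8.83 CPM; 1.83 ± 0.33, adjusted p = 0.0111). The folate enzyme Aldh1l2 and the amino acid transporter Slc7a3, in no list but among the 10 genes with the largest rise, were 82.2-fold and 74.3-fold higher (CTRL 87 to 163 and 63.3 to 93.8 CPM).

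ATF4 binds DNA together with C/EBP proteins at elements with the core TGATGNAA, a motif chosen after the results were seen. Both strands of the 250 bases before each gene's start were searched in RefSeq promoters (GRCm38.p6). Of the 17 genes 16 had an entry, and 5 of these held the core (31.2%), against 1056 of 27025 genes (3.91%). The share is a description and was not tested, and a match is not a known site. Of the 5 with the core, the 4 promoters below are shown because their genes are described above. Each is given 5′ to 3′ on the gene's strand with the core in capitals, which reads as its reverse complement where the match is on the other strand.
Asns (chr6:7693210-7693277): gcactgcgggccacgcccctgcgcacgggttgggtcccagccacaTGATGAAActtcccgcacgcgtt
Chac1 (chr2:119351004-119351101): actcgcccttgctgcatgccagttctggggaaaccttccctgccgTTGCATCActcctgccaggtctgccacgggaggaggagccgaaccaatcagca
Nupr1 (chr7:126625528-126625625): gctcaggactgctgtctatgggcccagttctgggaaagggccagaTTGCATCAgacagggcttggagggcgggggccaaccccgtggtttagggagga
Pck2 (chr14:55540118-55540215): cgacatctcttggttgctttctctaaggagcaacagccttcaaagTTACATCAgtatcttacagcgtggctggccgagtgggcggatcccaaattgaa
The core begins 23 bases before the start of Asns, 193 before that of Chac1, 110 before that of Nupr1 and 103 before that of Pck2. Their log2 fold changes against SOMB were 2.72, 7.84, 5.84 and 3.09. Trib3, which had an entry but no core, stood at 5.78, and all genes of the list rose, with the core or without it.

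**Figure D5:**
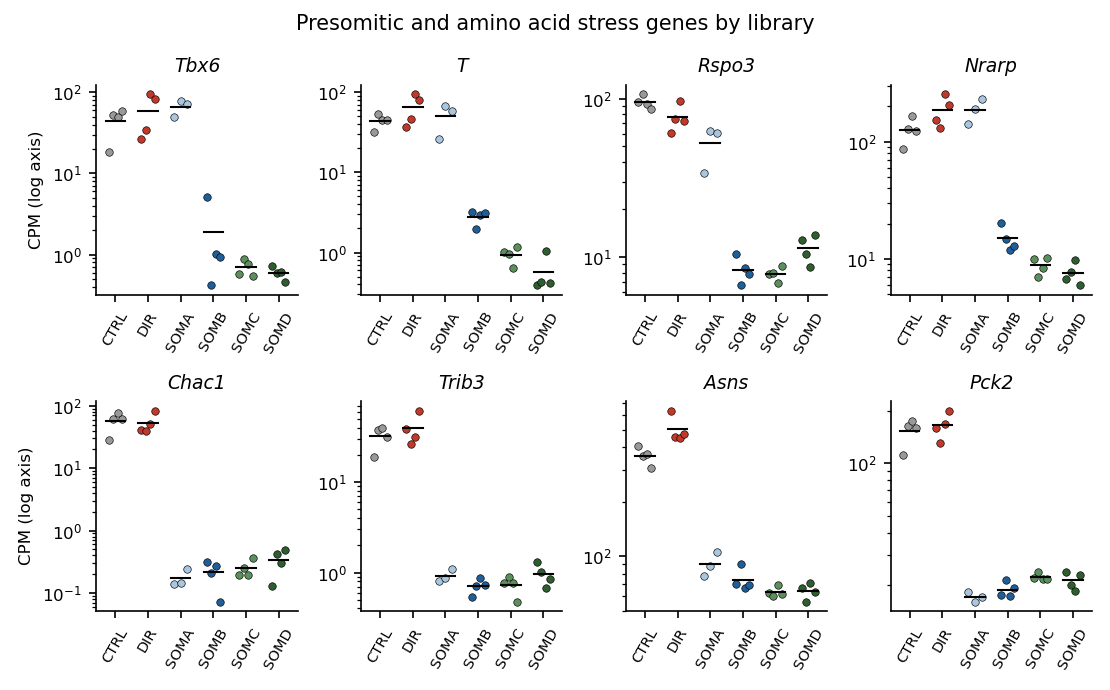
CPM on a log axis of 4 presomitic genes (upper row) and 4 amino acid stress genes (lower row) in each library of 6 groups (point: library; bar: group mean). Presomitic genes of DIR lie above every SOMB, SOMC and SOMD library, while stress genes of DIR and CTRL lie above every uncultured library.

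Other stress lists moved less uniformly. Of 17 p53 targets 7 rose, none fell and 7 were within 2-fold (median 0.32); Sesn2, which ATF4 induces too, rose by 2.23 ± 0.21 (75.2, 75, 75.8 and 132 CPM in DIR1 to DIR4 and 16.9, 15.7, 20.2 and 21.5 CPM in SOMB1 to SOMB4). Of 15 chaperones and folding enzymes of the endoplasmic reticulum 8 fell and 1 rose, Herpud1 (1.87), with Hspa5, the main chaperone there, at 801, 809, 856 and 595 CPM in DIR1 to DIR4 and 1403, 1233, 1388 and 1327 CPM in SOMB1 to SOMB4 (-0.84 ± 0.14, adjusted p = 0.00185). Of 10 heat shock genes 5 fell and none rose; Hspd1, the mitochondrial chaperonin, had 963, 909, 906 and 830.02 CPM in DIR1 to DIR4 and 1688, 1749.8, 1537 and 1747 CPM in SOMB1 to SOMB4 (-0.94, adjusted p = 4.05e-04). Of 14 tested NRF2 targets 10 were within 2-fold, where 62.9% of all genes tested were. In CTRL against SOMB 5 of 17 p53 targets rose and none fell (median 0.30). Of the 15 endoplasmic reticulum genes 10 fell and 1 rose there (median -0.57). Of the 10 heat shock genes 6 fell and none rose there (median -0.70).

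Genes switched on by YAP, TGF-beta and SRF, which respond to tension and serum, were lower. Of 10 genes of the YAP and TGF-beta response 7 fell and none rose (median -1.69; CTRL 7 lower, median -1.5). Ctgf, a matrix-bound growth factor and standard YAP readout, had 1.89, 3.9, 4.76 and 3.28 CPM in DIR1 to DIR4 and 15.5, 14.7, 23.4 and 15.7 CPM in SOMB1 to SOMB4, with no overlap (-2.37 ± 0.27, adjusted p = 3.86e-04). Cyr61 fell by 2.05; its highest library, SOMB3, had 239 CPM where the other SOMB libraries had 112 to 114 CPM. Of 10 cytoskeletal genes under SRF 7 fell and none rose (median -1.06; CTRL 8 lower). Myl9, a myosin light chain, had 4.93, 8.85, 8.95 and 6.36 CPM in DIR1 to DIR4 and 44.8, 43.6, 34.7 and 39.1 CPM in SOMB1 to SOMB4 (-2.52 ± 0.20, adjusted p = 5.64e-05), and Tagln, an actin-binding protein, 17.9, 25.5, 16.8 and 19.2 CPM in DIR1 to DIR4 and 81.1, 107, 54.4 and 67.5 CPM in SOMB1 to SOMB4 (-2.0 ± 0.21, adjusted p = 2.31e-04). Of 15 tested immediate early genes, which cells switch on within minutes of a stimulus, 6 fell and 2 rose. Fosb was at 1.09, 2.25, 3.08 and 2.49 CPM in DIR1 to DIR4 and 12.5, 26.6, 202 and 36.2 CPM in SOMB1 to SOMB4 (-5.01 ± 0.77, adjusted p = 0.00246) and Fos at 4.3, 7.6, 9.24 and 9.16 CPM in DIR1 to DIR4 and 20.6, 22.3, 129 and 43.8 CPM in SOMB1 to SOMB4 (-2.87 ± 0.55, adjusted p = 0.00514). SOMB3 was far above the other somite libraries in both. Every DIR library was below all of them, which the rule for naming the genes that fell most required. Btg2, an antiproliferative gene of the same list, rose (39.5, 50.6, 64.5 and 59.9 CPM in DIR1 to DIR4 and 18.3, 18.7, 18.5 and 16.1 CPM in SOMB1 to SOMB4; 1.54 ± 0.16, adjusted p = 1.97e-04).

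Most glycolysis transcripts were lower in cultured cells with and without the molecules. Of 18 tested genes 12 fell and 3 rose, with a median of -0.83; CTRL gave the same counts with a median of -0.87, and none of the 18 passed in DIR against CTRL. Presomitic mesoderm is known for high glycolysis, and the SOMA level of Pfkl was like that of SOMB. Pfkl, the liver form of phosphofructokinase, had 88.4, 101, 206 and 142 CPM in DIR1 to DIR4 and 416, 428, 551 and 571 CPM in SOMB1 to SOMB4 (-1.91 ± 0.25, adjusted p = 6.97e-04; SOMA 445 to 613 CPM). Pgam1, Tpi1 and Aldoa fell too, with values of -1.37, -1.2 and -1.09. DIR3 had the highest DIR value of Pfkl, and the groups did not overlap.

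Proliferation genes were close to the embryo (62.9% of all genes tested were within 2-fold). Of 24 mitosis genes 23 were within 2-fold and 1 rose, Nusap1 (0.79), with a median of 0.01; without SOMB4 none rose, and without any of DIR2, DIR4 and SOMB2 2 rose. Of 23 DNA replication genes 22 were within 2-fold and 6 fell, Ccne1 among them at -0.68 ± 0.10 (adjusted p = 0.00107); without SOMB4, 3 fell, and in CTRL 13 of the 23 fell. Of 75 tested respiratory chain genes 58 were within 2-fold and 4 rose (2 to 11 without a single library; 9 without DIR2 and 11 without SOMB2). Of 76 tested ribosomal protein genes 20 rose and none fell, with a median of 0.43. The count was 1 to 31 when single libraries were left out (1 without SOMB1 or SOMB4, 2 without SOMB3, 10 without DIR1, DIR3 or DIR4, 31 without DIR2). It also moved with the DIR pairs: without DIR1 and DIR2, 70 rose and 1 fell, and without DIR3 and DIR4, 8 rose and 21 fell. Ribosomal genes have many near-identical pseudogenes, and the DIR pairs differ in their multi-mapping share; the part of this in the result was not tested.

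Matrix and adhesion genes were called in both directions, and so were all genes tested (17.4% higher, 15.4% lower and 62.9% within 2-fold). Of 32 matrix genes 10 fell, 1 rose and 17 were within 2-fold (median -0.37). Col3a1, a fibrillar collagen, had 220.00, 286, 75.3 and 186 CPM in DIR1 to DIR4 and 626, 489, 447 and 413 CPM in SOMB1 to SOMB4 (-1.4 ± 0.32, adjusted p = 0.0103); without SOMB1, 6 of the 32 fell. Lama4, a laminin chain of vessel walls, rose by 1.23. Of 12 matrix remodelling genes 4 fell and 3 rose (median -0.14; 1 rose without DIR2, SOMB1 or SOMB4, and 2 without DIR1, DIR4 or SOMB3). The matrix protease Mmp9 rose most among them (16.6, 60.8, 60.9 and 35.1 CPM in DIR1 to DIR4 and 1.2, 2.1, 1.81 and 1.08 CPM in SOMB1 to SOMB4; 4.75 ± 0.42, adjusted p = 1.02e-04), with CTRL at 29 to 64.3 CPM. Of 9 mesenchymal factors 4 fell and 1 rose; Snai2, a repressor of epithelial genes, had 7.14, 9.12, 5.49 and 5.77 CPM in DIR1 to DIR4 and 33.2, 29, 22.6 and 32.9 CPM in SOMB1 to SOMB4 (-2.13 ± 0.19, adjusted p = 1.03e-04). Of 11 cadherins and protocadherins 6 fell and 2 rose (1 without DIR1, DIR2, DIR4, SOMB1 or SOMB4), and of 19 ephrins and Eph receptors 6 fell and 4 rose, with Efna1 at 2.18 and Efna2 at -1.45. Without SOMB1, 2 of these 19 genes fell, and without SOMB4, 3. In CTRL against SOMB, 6 matrix genes fell and 4 rose, and 4 remodelling genes fell and 2 rose. Of the mesenchymal factors 1 fell and 1 rose there, and of the cadherins and protocadherins 4 fell and 1 rose. Of the ephrins and Eph receptors 5 fell and 5 rose there.

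Markers of neighbouring tissues, which a sort by Dll1 lineage could carry along, also differed. In bulk RNA, fewer cells of a type and less RNA per cell cannot be told apart. Of 12 tested lateral plate factors 6 fell and none rose (median -1.13); their summed level was 88.3 to 125 CPM in DIR, 153 to 324 CPM in SOMB and 284 to 386 CPM in CTRL, with Nkx2-5 at 0 in all DIR and SOMB libraries. Hand1, a bHLH factor of that tissue and a BMP-dependent gene, had 6.56, 9.61, 8.9 and 10.7 CPM in DIR1 to DIR4 and 49.2, 25.8, 45.1 and 50.6 CPM in SOMB1 to SOMB4 (-2.29 ± 0.23, adjusted p = 1.88e-04; CTRL 28 to 68.9 CPM). Of 7 intermediate mesoderm genes 3 fell, Wt1 the most (4.01, 2.97, 0.770 and 3.04 CPM in DIR1 to DIR4 and 26.6, 32.1, 19.2 and 19.1 CPM in SOMB1 to SOMB4; -3.18 ± 0.37, adjusted p = 4.48e-04). Of 10 tested neural genes 5 fell and none rose; their sums were 47.9 to 98.2 CPM in DIR and 90.7 to 167 CPM in SOMB, and 3 fell without any of DIR2, SOMB1, SOMB2 and SOMB4. In CTRL against SOMB 6 neural genes fell (median -1.37), and in DIR against CTRL none passed (median 0.45). Against CTRL, 7 of 12 lateral plate and 3 of 7 intermediate mesoderm genes were lower in DIR, beside the lower BMP targets; their part in that result was not tested.

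Endothelial markers were higher. Of 13, 6 rose and none fell (median 1.03), and the sums were 280 to 637 CPM in DIR, 134 to 333 CPM in SOMB and 366 to 519 CPM in CTRL. Kdr, the VEGF receptor, had 105, 187, 162 and 135 CPM in DIR1 to DIR4 and 49.97, 56.1, 83.4 and 31.6 CPM in SOMB1 to SOMB4 (1.38 ± 0.27, adjusted p = 0.00481) and Etv2, an early endothelial factor, 7.07, 12.5, 32 and 21 CPM in DIR1 to DIR4 and 4.01, 3.02, 3.88 and 4.48 CPM in SOMB1 to SOMB4 (2.2 ± 0.40, adjusted p = 0.00361). Without SOMB1, 3 of the 13 rose. Lama4 and Mmp9 rose beside these markers, and the part of endothelial cells in their rise was not tested. Of 8 macrophage markers 6 were under the filter on low counts, and of the other two Cd68 fell by 2.28 ± 0.43 (adjusted p = 0.00395). Their sums were 2.06 to 3.7 CPM in DIR and 3.83 to 11.8 CPM in SOMB. Erythroid markers summed to 21.3 to 67.3 CPM in DIR and 5.22 to 43.5 CPM in SOMB, embryonic globins among them, and none of the 5 tested passed (median 0.78). Hox genes, which record position along the body, mostly did not pass the test: of 15 in groups 1 to 5, 12 were within 2-fold and 2 rose (1 to 4 without a single library), and of 5 in groups 6 and 7, 1 fell (none without DIR1, DIR2, SOMB1 or SOMB3). Of 16 tested in groups 8 to 13, 4 were within 2-fold, 1 fell and none rose; without SOMB1, 4 rose, without DIR3 1 rose, and without DIR3 or SOMB3 2 fell. CTRL had 7 genes of groups 1 to 5 and 8 of groups 8 to 13 higher than SOMB. Directly against CTRL, 1 of 15 genes of groups 1 to 5 was lower in DIR and none was higher (median -0.57). None of the 16 in groups 8 to 13 passed there (median -0.59).

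Several of the genes with the largest difference belong to none of these lists. Colec10, a secreted lectin, was counted at 0.340, 0.368, 0.433 and 0.207 CPM in DIR1 to DIR4 and 10.5, 7.21, 12.5 and 9.17 CPM in SOMB1 to SOMB4 (-4.89 ± 0.27, adjusted p = 8.15e-06), with CTRL at 0.228 to 0.637 and SOMA at 0.573 to 1.96 CPM. Gpr50, an orphan receptor, had 1.92, 2.03, 0.674 and 1.9 CPM in DIR1 to DIR4 and 30.5, 20.8, 28.9 and 28 CPM in SOMB1 to SOMB4 (-4.05 ± 0.28, adjusted p = 3.25e-05). Mab21l2 and Popdc2 fell, with values of -3.18 and -3.12; the rule that chose both required groups without overlap. Gad1, the enzyme that makes the transmitter GABA, rose by 5.58 ± 0.52 (14.6, 16.8, 17 and 21 CPM in DIR1 to DIR4 and 0.891, 0.126, 0.134 and 0.144 CPM in SOMB1 to SOMB4; adjusted p = 7.67e-05), and SOMA held 9.21 to 12.4 CPM. Klf4, a zinc finger factor, was at 1.41, 2.01, 2.5 and 2.66 CPM in DIR1 to DIR4 and 6.68, 8.21, 36.8 and 8.24 CPM in SOMB1 to SOMB4 (-2.84 ± 0.53, adjusted p = 0.00466).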

How the data were processed

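Per the labels' protocols, Trizol was used for RNA and a TruSeq kit (version 2; 11 PCR rounds) for libraries; this kit does not mark strand, so a gene and its antisense partner cannot be told apart. The authors deposited integer counts per gene. Tools named per the submitters' processing notes are HTSeq 0.6, TopHat2 2.0.9, DESeq2 1.10 and Cufflinks, with mm10. For annotation and strand setting, nothing is given in the sources used here. Each file holds 23337 genes and 5 HTSeq summary lines, left out of all totals. Reads in no feature made 6.54 to 12% of DIR and SOMB libraries.

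Counts of DIR and SOMB were fitted alone with edgeR 4.0.16 under R 4.3.3 (filterByExpr with a minimum count of 10 and total of 15, TMM, quasi-likelihood F test, prior count 0.125), with Benjamini-Hochberg adjustment over all genes tested and a threshold of 0.05. CTRL against SOMB and DIR against CTRL came from 1 fit of CTRL, DIR, SOMA and SOMB. Levels are CPM with TMM scaling over the 6 sorted groups. Errors are SE of the log2 fold change, computed from the fitted weights and the moderated quasi-dispersion; intervals are 95%. The fit was tested on simulated data. Distances used log2 CPM with a prior count of 2. WT and MUT libraries were not used here.

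The members, 51 gene lists and naming rule were chosen with earlier results of these data known. The rule takes, in each direction, the 10 genes that changed most (past the threshold, mean of at least 5 CPM, no overlap; Xist, Tsix, Y-linked and unnamed models left out), all of the sclerotome, formed somite, Hedgehog target, Hedgehog-lowered and BMP target lists, 7 further anchors, and up to 4 members per other list with the lowest p; some genes it takes are not reported here. Of 776 list genes 4 were matched under older symbols. Gene coordinates are from GENCODE M21 (GRCm38). Figures were drawn with matplotlib 3.10.9.

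Alternatives were no filter, RLE factors, plain library totals, at least 1 CPM in 4 libraries, DESeq2 1.42.0, all 6 sorted groups in 1 fit, replicate number as a block and each library left out. Chosen after seeing the data were leaving out DIR1 with DIR2 or DIR3 with DIR4, and the multi-mapping share as a covariate.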

Additional observations from a re-analysis of the deposited data

Results flagged for a closer look

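Among the 193 named genes, the libraries of 1 group were checked for a value far from the other 3, in DIR and in SOMB (386 sets of 4). A gap too wide by Dixon's 95% value was found in 24 sets; chance gives about 1 in 20. SOMB3 stood apart in 6 sets, all high: Fosb 202 CPM (others 12.5 to 36.2), Klf4 36.8 (6.68 to 8.24), Ctgf 23.4 (14.7 to 15.7), Cyr61 239 (112 to 114), Pax3 62.1 (50.8 to 52.4) and Col4a1 483 (336 to 349). SOMB1 was high in Tbx6 (5.17 CPM, others 0.419 to 1.0), Gad1 (0.891, others 0.126 to 0.144) and Fgf4 (0.0445, others 0). SOMB2 was low in Smo (214 CPM, others 241 to 242), Egln1 (69.8), Gclc (63.3) and Pcdh7 (25.4), and high in Asns (90.4). SOMB4 was low in Btg2 (16.1).

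Among DIR libraries, DIR3 was high in Dnaja1 (451 CPM, others 267 to 297), Fen1 (138) and Cdh6 (2.02) and low in Gpr50 (0.674). The fall of Fen1 against SOMB (adjusted p = 0.0155, edgeR) did not pass without DIR1 and DIR2 (0.0633) or without SOMB4 (0.0526). DIR4 was high in Sesn2 (132 CPM, others 75 to 75.8) and Col9a1 (16.5). DIR1 was high in Asns (636 CPM, others 449 to 470) and low in Col4a1 (190), and DIR2 was high in Spry4 (33.5).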

How the results depend on the processing

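Over the alternatives other than leaving out a DIR pair, the counts of higher, lower and within 2-fold genes stayed within 1.5 times their values. Leaving out single libraries gave 1675 to 2573 higher, 1446 to 2339 lower and 8043 to 8684 within 2-fold, and for CTRL against SOMB 2033 to 2556 higher and 1422 to 1989 lower. Without DIR3 and DIR4, 3380 genes were lower; the cause was not tested. Of the 4504 genes called, 4187 were tested and kept their sign under the filter of 1 CPM, and at least 4498 under every other alternative. Replicate numbers did not pair DIR and SOMB: the same-number correlations of deviations were 0.150, -0.291, 0.0268 and -0.0812. With the number as a block 1721 genes were higher, 1622 lower and 8281 within 2-fold. Of 178 named genes past the threshold 146 passed under every alternative, 28 were lost without at least 1 single library, 12 under the block and 0 under DESeq2; none changed sign. Of those not past it, 9 passed under at least 1 alternative, Tcf15 and Msx1 under 5 each, including the block. Direction changed for genes that had not passed. Without DIR1 and DIR2, Gli1 was 0.0120. Without DIR3 and DIR4, Foxc2 was -0.30, Hhip 0.33, Foxf1a -1.06 and Scx -0.50. Without single libraries Hhip ranged from -0.44 to 0.15 (the latter without DIR3) and Foxc2 ranged from -0.14 to 0.16; Foxc2 was -0.0295 under the block and -0.000917 with RLE factors. Medians over all genes moved by at most 0.05. With a median interval half-width of 0.40 on the log2 scale, the depth and number of libraries limit which smaller differences could be found.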

Other observations

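The RNA sensor Ddx58 had 12.7, 16, 14.8 and 13.4 CPM in DIR1 to DIR4 and 1.92, 1.34, 2.81 and 1.59 CPM in SOMB1 to SOMB4 (2.87 ± 0.23, adjusted p = 5.63e-05, edgeR), with CTRL at 8.87 to 11.7 CPM; of 7 tested interferon genes it alone rose (2 to 3 rose without DIR1, DIR2 or SOMB1, and 4 by DESeq2). The receptor Epha5 had 3.08, 3.55, 4.24 and 3.28 CPM in DIR1 to DIR4 and 0.891, 0.629, 0.268 and 0.289 CPM in SOMB1 to SOMB4 (2.65 ± 0.35, adjusted p = 5.66e-04), and CTRL held 3.88 to 5.16 CPM. The cardiac actin gene Actc1, made early in myotome, had 6.09, 5.34, 5.05 and 5.74 CPM in DIR1 to DIR4 and 21.2, 22.4, 19 and 18.3 CPM in SOMB1 to SOMB4 (-1.9 ± 0.14, adjusted p = 2.96e-05), with CTRL at 3.6 to 5.75 CPM, and the troponin gene Tnnt1 rose by 1.22 ± 0.29 (adjusted p = 0.0109).

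The retinoic acid degrading enzyme Cyp26b1 fell by 1.84 ± 0.42 (0.947, 0.833, 0.144 and 0.588 CPM in DIR1 to DIR4 and 2.23, 1.8, 3.21 and 2.02 CPM in SOMB1 to SOMB4; adjusted p = 0.00894). The growth regulator Ddit4 rose by 2.28 ± 0.21 (105, 91.5, 175 and 158 CPM in DIR1 to DIR4 and 30.5, 21.5, 28.1 and 26.4 CPM in SOMB1 to SOMB4; adjusted p = 1.28e-04). Of 22 cholesterol synthesis genes 17 were within 2-fold, 5 fell and 1 rose, sets that can overlap with the first; 11 fell without DIR3 and 3 without SOMB4.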
